A study of Mus musculus with 6 samples.

Results

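The genes of MHC class I antigen presentation were taken by symbol from the 40803 mouse genes of the liver count table, 10 genes in all. They were the inducible catalytic subunits of the proteasome (Psmb8, Psmb9 and Psmb10), both chains of the peptide transporter (Tap1 and Tap2), the loading chaperone tapasin (Tapbp), the classical heavy chains H2-K1 and H2-D1 with their light chain B2m, and the transactivator Nlrc5. All 10 were listed, and 10 of 10 passed the filter on low counts that left 16327 genes for testing. The libraries came from livers of normally fed C57BL6 mice, 3 given rAAV8-Scramble and 3 given rAAV8-Hnf1aos1, with 1 mouse per library. The vector rAAV8, an adeno-associated virus of a serotype that infects hepatocytes well, carried in both groups a short hairpin RNA under the U6 promoter and EGFP under the CAG promoter, so that the control mice also carried vector, hairpin and EGFP. The hairpin was directed against the lncRNA Hnf1aos1 in the rAAV8-Hnf1aos1 group and was a scrambled sequence in the rAAV8-Scramble group. Per the methods, the mice were males injected at about 6 weeks of age with 100 µL of virus through the tail vein, and livers were taken 4 weeks later. Livers of uninjected mice were not analysed here.

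MHC class I molecules display peptides from inside a cell to CD8+ T cells. The proteasome cuts proteins into peptides, and interferon replaces its catalytic subunits with those of the immunoproteasome. TAP pumps the peptides into the endoplasmic reticulum, where tapasin bridges TAP and an empty class I molecule until a peptide is bound, and the heavy chain with B2m then travels to the cell surface. NLRC5 is recruited to class I promoters and raises transcription of several genes of this path together.

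The genes of the path were higher in rAAV8-Hnf1aos1 livers. With edgeR's quasi-likelihood test and Benjamini-Hochberg adjustment over all genes tested, 8 of the 10 members were called higher at an adjusted p under 0.05 and 0 were called lower, where 3.09% of all genes tested were called higher, 3.23% lower and 6.32% either way. All 10 members had an unadjusted p under 0.05 and a positive fold change, against 12.0% of all genes tested. The 2 members not called were B2m and Nlrc5. In 10 of 10 members, every rAAV8-Hnf1aos1 library lay above every rAAV8-Scramble library in normalized counts, against 15.2% of all genes tested, while 13.7% of all genes had the groups apart in the other direction. The log2 fold changes ran from 0.29 for B2m to 1.17 for Tap1 with a median of 0.54, beside a median of -0.00 over all genes tested. Because these are whole livers, a change in the number of cells of a type and a change in RNA per cell cannot be told apart.

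**Figure D1:**
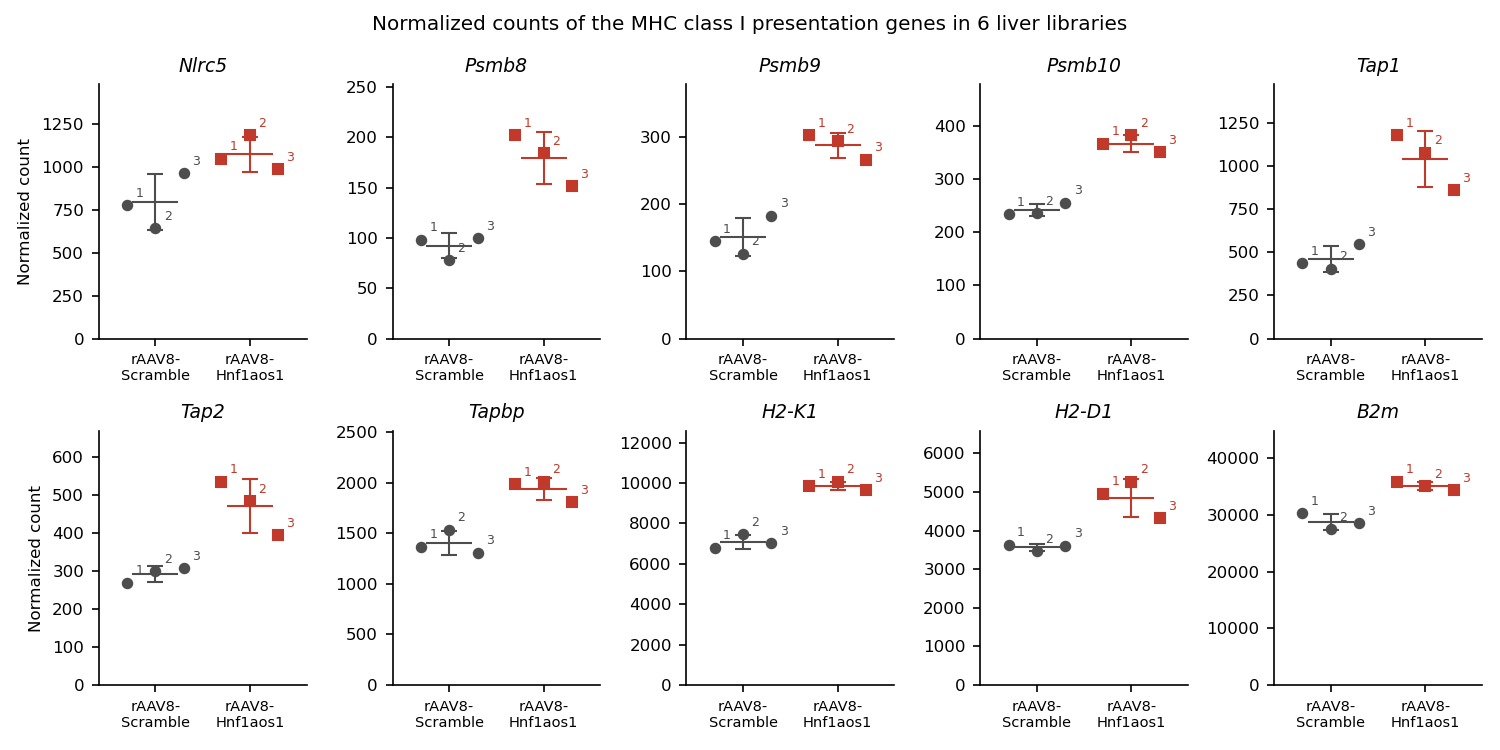
Normalized counts (y axis, linear and starting at 0, own scale in each panel) of the 10 genes in the 3 rAAV8-Scramble and 3 rAAV8-Hnf1aos1 libraries; each point is 1 mouse. In every panel the rAAV8-Hnf1aos1 points lie above the rAAV8-Scramble points, closest for Nlrc5, whose highest rAAV8-Scramble library had 965 and lowest rAAV8-Hnf1aos1 library 986 normalized counts.

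Library totals over mouse genes were 14704746 to 16532510 in rAAV8-Scramble and 18021614 to 19462398 in rAAV8-Hnf1aos1. ERCC spike-in RNAs made up 1.38 to 1.52% of all counts in rAAV8-Scramble and 1.18 to 1.24% in rAAV8-Hnf1aos1. Neither range overlapped between the groups, so that depth and spike-in share went with treatment. The targeted lncRNA Hnf1aos1 had 512, 491 and 620 normalized counts in the 3 rAAV8-Scramble mice and 278, 258 and 433 in the 3 rAAV8-Hnf1aos1 mice. The groups did not overlap, and the log2 fold change was -0.74 (SE 0.195), with an adjusted p of 0.0625 in edgeR's quasi-likelihood test that missed the threshold.

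Of the immunoproteasome subunits, Psmb8 takes the place of Psmb5, Psmb9 that of Psmb6 and Psmb10 that of Psmb7 in the catalytic core. Psmb8 had 98.5, 77.9 and 100.1 normalized counts in rAAV8-Scramble mice 1 to 3 and 202, 184 and 151 in rAAV8-Hnf1aos1 mice 1 to 3. Psmb9 had 145, 126 and 183 normalized counts in the rAAV8-Scramble mice and 302, 294 and 266 in the rAAV8-Hnf1aos1 mice. The lowest rAAV8-Hnf1aos1 mouse exceeded the highest rAAV8-Scramble mouse for both genes. Psmb10 had 234, 236 and 255 normalized counts in the rAAV8-Scramble mice and 366, 382 and 351 in the rAAV8-Hnf1aos1 mice, with a narrow spread within each group. Psmb8 rose 1.94-fold (log2 0.96, SE 0.166, adjusted p = 0.0105 in edgeR's quasi-likelihood test), on raw counts of 71 to 212 per library. Psmb9 rose 1.90-fold (log2 0.93, SE 0.145, adjusted p = 0.00682) and Psmb10 rose 1.52-fold (log2 0.60, SE 0.103, adjusted p = 0.0103) in the same edgeR fit.

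The constitutive counterparts did not pass the test. Psmb5 had a log2 fold change of 0.26 (95% interval 0.0017 to 0.52, edgeR adjusted p = 0.211). Its groups overlapped, at 429, 535 and 414 normalized counts in rAAV8-Scramble and 521, 602 and 524 in rAAV8-Hnf1aos1. Psmb6 had a log2 fold change of -0.05 (95% interval -0.24 to 0.14) and Psmb7 of 0.21 (95% interval 0.0048 to 0.41). The groups of Psmb7 were apart with rAAV8-Hnf1aos1 higher, 1 of the 3 counterparts (15.2% of all genes tested). Psmb5 and Psmb7, 2 of the 3, had an unadjusted p under 0.05 with a positive fold change in edgeR (12.0% of all genes tested). The inducible share was compared within each library by the ratio of TPM, a measure per gene length. Psmb9 made up 16.3% ± 3.14 (SD, n = 3) of the summed TPM of Psmb9 and Psmb6 in rAAV8-Scramble and 27.8% ± 1.75 (SD, n = 3) in rAAV8-Hnf1aos1. Psmb8 made up 12.7% ± 2.89 and 18.9% ± 2.46 of its pair with Psmb5, and Psmb10 12.5% ± 1.28 and 15.7% ± 0.545 of its pair with Psmb7 (SD, n = 3 each). The inducible subunit thus took a larger share in every rAAV8-Hnf1aos1 mouse than in any rAAV8-Scramble mouse for all 3 pairs. Each pair gave p = 0.1 in an exact two-sided permutation test, the smallest that 3 against 3 allows, and 0.12 after adjustment over the 6 ratios compared. The log2 ratio of Psmb8 to Psmb5 was 0.69 higher in rAAV8-Hnf1aos1, and 0.46 higher without rAAV8-Scramble mouse 2.

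**Figure D2:**
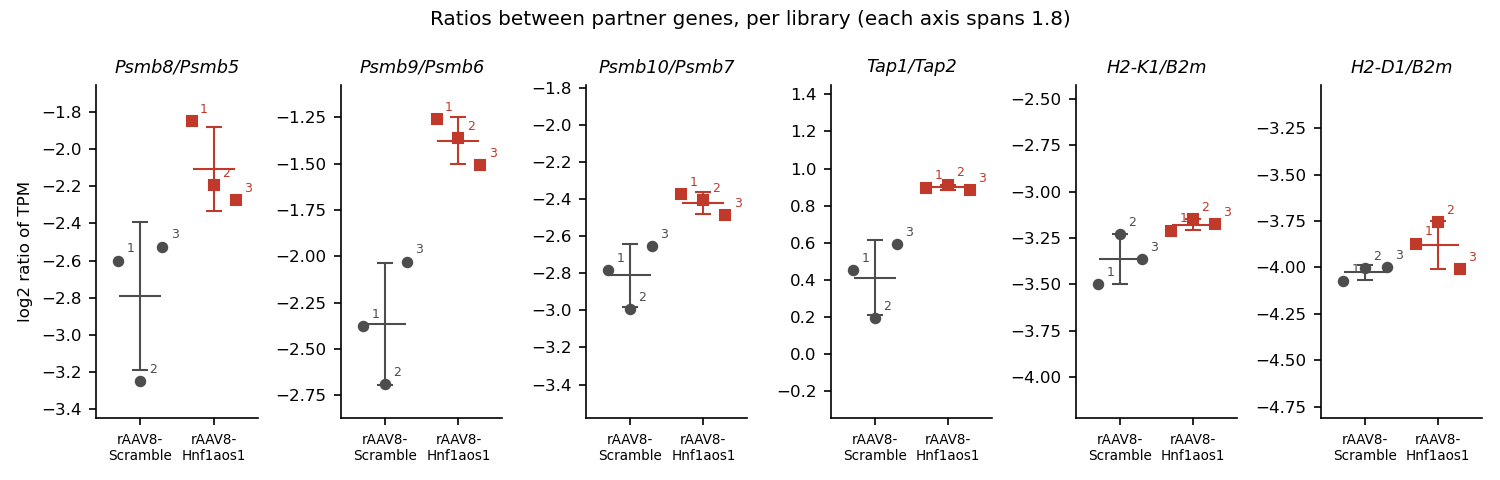
log2 ratio of TPM (y axis, each spanning 1.8) between 6 pairs of partner genes in each library, with 0.1 added to TPM; each point is 1 mouse. The rAAV8-Hnf1aos1 points lie above the rAAV8-Scramble points in the first 5 ratios, by 0.99 on average for Psmb9/Psmb6, and overlap with them for H2-D1/B2m.

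Fewer genes were called in the rest of the proteasome, and the difference from the inducible subunits was not tested. Of 11 other subunits of the 20S core, 2 were called higher (3.09% of all genes tested), Psma4 (log2 fold change 0.33, edgeR adjusted p = 0.0462) and Psmb4 (0.39, adjusted p = 0.0339), and the 11 log2 fold changes lay between 0.17 and 0.39 with a median of 0.22. The groups were apart with rAAV8-Hnf1aos1 higher in 9 of the 11 (15.2% of all genes tested), and 8 of the 11 had an unadjusted p under 0.05 with a positive fold change in edgeR (12.0% of all genes tested). Of 4 genes for the PA28 activator and proteasome assembly, 0 were called higher (3.09% of all genes tested), with a median log2 fold change of 0.14. All 4 lay above 0. The groups were apart with rAAV8-Hnf1aos1 higher in 3 of the 4, Psme1, Psme3 and Pomp (15.2% of all genes tested). Psme1 and Psme2, which encode the interferon-inducible PA28 cap, had log2 fold changes of 0.11 (95% interval -0.08 to 0.29) and 0.18 (95% interval -0.03 to 0.39).

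**Figure D3:**
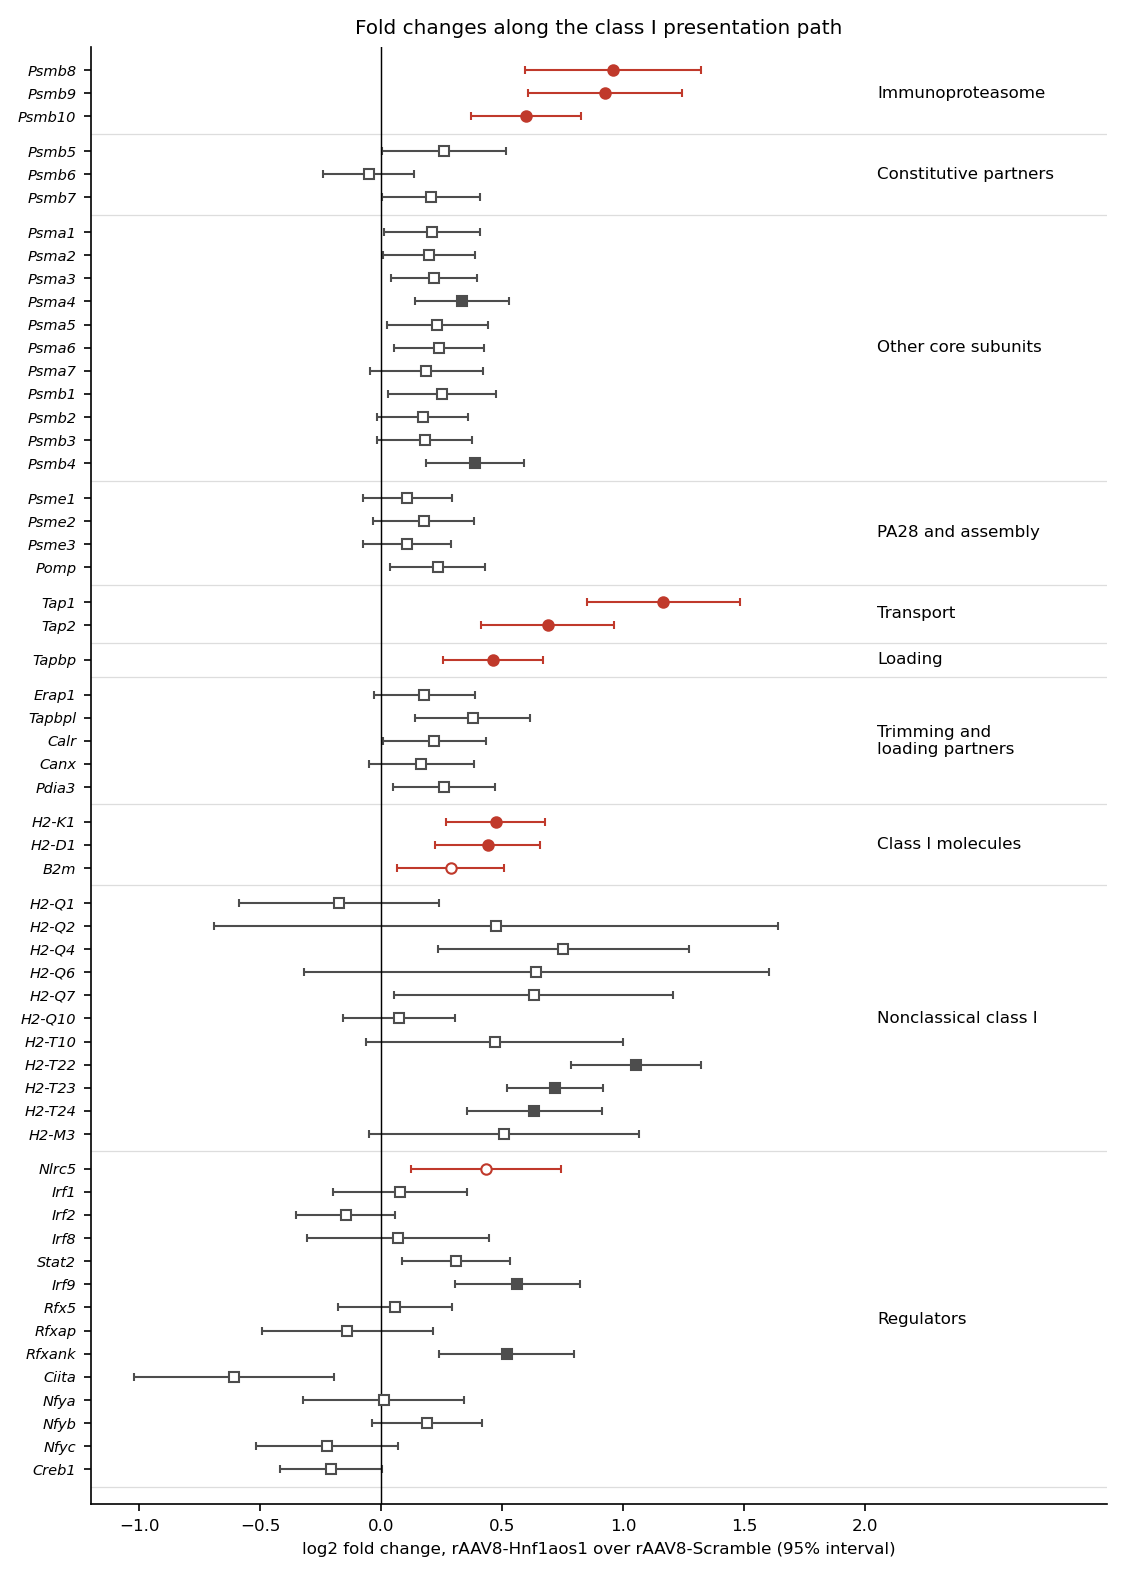
log2 fold change (x axis, rAAV8-Hnf1aos1 over rAAV8-Scramble) with its 95% interval for the members and the tested genes of the pathway lists, in the order of the path. The immunoproteasome subunits, Tap1 and Tap2 lie between 0.60 and 1.17, and the other members between 0.29 and 0.47. The other 20S core subunits lie between 0.17 and 0.39.

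TAP is a heterodimer, and its genes flank Psmb8 in the class II region of chromosome 17. Tap1 had 436, 406 and 549 normalized counts in the rAAV8-Scramble mice and 1179.6, 1079.5 and 861 in the rAAV8-Hnf1aos1 mice. Tap2 had 269, 299.7 and 307 normalized counts in the rAAV8-Scramble mice and 534, 483 and 393 in the rAAV8-Hnf1aos1 mice. In both genes rAAV8-Hnf1aos1 mouse 1 was highest and mouse 3 the lowest of its group, still above all rAAV8-Scramble mice. Tap1 rose 2.24-fold (log2 1.17, SE 0.142, adjusted p = 0.00286), the largest fold change of the 10 members, and Tap2 rose 1.61-fold (log2 0.69, SE 0.126, adjusted p = 0.0121) in edgeR's quasi-likelihood test. The log2 ratio of Tap1 to Tap2 TPM was 0.45, 0.19 and 0.59 in the rAAV8-Scramble mice and 0.90, 0.91 and 0.88 in the rAAV8-Hnf1aos1 mice. The change in Tap1 exceeded that in Tap2 by 0.49 on the log2 scale, with p = 0.1 in the exact permutation test and 0.12 adjusted over 6 ratios.

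In GRCm38, Psmb9 (chr17:34181987-34187764, minus strand), Tap1 (chr17:34187553-34197225, plus strand), Psmb8 (chr17:34197721-34201454, plus strand) and Tap2 (chr17:34203527-34216321, plus strand) lie within 34335 bases. Tapbp (chr17:33915899-33929292, plus strand), H2-K1 (chr17:33996017-34000347, minus strand) and H2-D1 (chr17:35262730-35267499, plus strand) are on the same chromosome, so that 7 of the 10 members are on chromosome 17. B2m lies at chr2:122147686-122153083 (plus strand), Psmb10 at chr8:105935735-105938444 (minus strand) and Nlrc5 at chr8:94434356-94527272 (plus strand). The Psmb9 and Tap1 gene models run head to head and share 212 bases on opposite strands, where reads of either cannot be told apart if strand was not used in counting. The stretch between the RefSeq start sites of Psmb9 and Tap1 is shown because both genes rose and share it. It spans 225 bases of GRCm38.p6, chr17:34187331-34187555, plus strand, with CCAAT and TGACG in capitals. RefSeq starts can differ from the GENCODE model ends given above, and this stretch lies inside the GENCODE model of Psmb9.
Psmb9-Tap1: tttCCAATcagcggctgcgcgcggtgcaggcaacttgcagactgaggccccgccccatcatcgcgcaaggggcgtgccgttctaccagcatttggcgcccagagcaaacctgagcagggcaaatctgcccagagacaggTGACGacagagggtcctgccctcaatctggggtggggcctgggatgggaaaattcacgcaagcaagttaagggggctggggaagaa
The TGACG begins 86 bases before the Tap1 start. A GAS motif (TTCNNNGAA, the interferon-gamma activated site) was found 97 bases before the RefSeq start of Psmb8, in capitals at chr17:34198083-34198121, plus strand. That RefSeq start and this stretch lie inside the longer GENCODE model of Psmb8.
Psmb8: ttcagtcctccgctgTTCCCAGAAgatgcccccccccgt
A GAS match stood in the 250 bases before the start in 7.02% of 32851 promoter windows of the RefSeq table, and among the 8 members with a window Psmb8 was the only 1 with it. These matches describe the letters and not a bound site.

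Tapbp had 1368, 1538 and 1311 normalized counts in the rAAV8-Scramble mice and 1987, 2011 and 1809.6 in the rAAV8-Hnf1aos1 mice, without overlap. It rose 1.38-fold (log2 0.46, SE 0.0937, adjusted p = 0.0188 in edgeR's quasi-likelihood test). The 5 peptide trimming and loading partners were the aminopeptidase Erap1, the tapasin relative Tapbpl, the chaperones Calr and Canx and the oxidoreductase Pdia3. Of these, 0 were called higher (3.09% of all genes tested), and their median log2 fold change was 0.22. All 5 lay above 0, and 4 had the groups apart with rAAV8-Hnf1aos1 higher (15.2% of all genes tested). In edgeR 3 of the 5 had an unadjusted p under 0.05 with a positive fold change (12.0% of all genes tested). The highest of the 5 fold changes was that of Tapbpl at 0.38 (edgeR adjusted p = 0.0622).

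The heavy chains were already abundant in rAAV8-Scramble livers. H2-K1 had 6798, 7459.5 and 7026 normalized counts in the rAAV8-Scramble mice and 9833, 10061 and 9641 in the rAAV8-Hnf1aos1 mice. H2-D1 had 3640.2, 3471 and 3607 normalized counts in the rAAV8-Scramble mice and 4954, 5265 and 4317 in the rAAV8-Hnf1aos1 mice. Neither gene's groups overlapped, and H2-D1 varied more among the rAAV8-Hnf1aos1 mice. H2-K1 rose 1.39-fold (log2 0.47, SE 0.0928, adjusted p = 0.0163) and H2-D1 rose 1.36-fold (log2 0.44, SE 0.0989, adjusted p = 0.0287) in edgeR's quasi-likelihood test. Class I genes are similar in sequence to each other, so that counts of uniquely mapped reads may be split unevenly among them. B2m had 30278, 27546 and 28516 normalized counts in the rAAV8-Scramble mice and 35870.0, 35127 and 34346 in the rAAV8-Hnf1aos1 mice. The groups were apart, but the log2 fold change of 0.29 (SE 0.10, 95% interval 0.07 to 0.51) had an adjusted p of 0.112 in edgeR's test.

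B2m TPM exceeded that of H2-K1 10.3 ± 0.966 times in rAAV8-Scramble and 9.05 ± 0.199 times in rAAV8-Hnf1aos1 (SD, n = 3 each). The log2 ratio of H2-K1 to B2m was 0.19 higher in rAAV8-Hnf1aos1 (exact permutation p = 0.1, adjusted 0.12), with no overlap between groups, but the difference was 0.12 without rAAV8-Scramble mouse 1. The ratio of H2-D1 to B2m overlapped between groups, with a difference of 0.15 (exact permutation p = 0.3, adjusted 0.3) that was 0.08 without rAAV8-Hnf1aos1 mouse 2.

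The promoters of H2-K1, H2-D1 and B2m are shown because each held TGACG, the half-site of CREB/ATF factors, followed by ATTGG, the reverse complement of the CCAAT bound by NF-Y, with their starts 25 bases apart on the strand of the gene. The 80-base stretches from RefSeq, GRCm38.p6, are chr17:34000349-34000428 (minus strand) for H2-K1, chr17:35262953-35263032 (plus strand) for H2-D1 and chr2:122147569-122147648 (plus strand) for B2m, with both motifs in capitals.
H2-K1: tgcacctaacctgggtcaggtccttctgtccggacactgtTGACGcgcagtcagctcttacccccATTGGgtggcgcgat
H2-D1: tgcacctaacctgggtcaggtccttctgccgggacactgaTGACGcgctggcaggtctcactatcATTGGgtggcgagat
B2m: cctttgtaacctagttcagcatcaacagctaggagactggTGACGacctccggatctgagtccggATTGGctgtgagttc
Starts are those of RefSeq, and the H2-D1 stretch lies inside the longer GENCODE model of H2-D1. H2-K1 and H2-D1 were identical at 69 of 80 positions, and each matched B2m at 36 of 80. The pair at this spacing stood in 18 of 32851 windows (0.0548%), and the spacing was chosen after the sequences had been seen. Searched singly on both strands, CCAAT was present in 33.8% of windows and in 6 of the 8 members with a window, and TGACG in 17.8% of windows and 5 of the 8. A loose NF-kappaB motif stood in 45.8% of windows and in 5 of the 8 members. The interferon-stimulated response element (ISRE) was searched only as a strict pattern, with no mismatch allowed at its fixed letters. Other forms of the element would be missed, so a window without this pattern may still hold an ISRE. The strict pattern stood in 2.98% of windows and in B2m alone of the 8, in capitals at chr2:122147533-122147572, plus strand.
B2m upstream: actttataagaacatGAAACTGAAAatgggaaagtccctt

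Nonclassical class I genes were followed from a list of 13, of which 11 were tested. Called higher were 3 of the 11 (3.09% of all genes tested) and lower 0, with a median log2 fold change of 0.63. The groups were apart with rAAV8-Hnf1aos1 higher in 7 of the 11 (15.2% of all genes tested). H2-T22 had 876, 821 and 745 normalized counts in rAAV8-Scramble and 1995, 1628 and 1441 in rAAV8-Hnf1aos1 (log2 fold change 1.05, edgeR adjusted p = 0.00154). H2-T23, which encodes the Qa-1 ligand of NKG2 receptors, had 1493, 1284 and 1326 against 2273, 2299.7 and 2178 (log2 fold change 0.72, edgeR adjusted p = 0.00256). The third gene called was H2-T24 (0.63, adjusted p = 0.0179). H2-Q4 had 0.75 with the groups apart but was not called (edgeR adjusted p = 0.0940). H2-Q10, a secreted class I molecule of the liver, did not pass the test at 0.07 (95% interval -0.16 to 0.30) and its groups overlapped.

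Nlrc5 had 777, 642 and 965 normalized counts in the rAAV8-Scramble mice and 1047, 1184 and 986 in the rAAV8-Hnf1aos1 mice. The groups did not overlap, although rAAV8-Scramble mouse 3 came close to the lowest rAAV8-Hnf1aos1 mouse. The log2 fold change was 0.43 (SE 0.139, 95% interval 0.12 to 0.74), with an adjusted p of 0.0928 in edgeR's quasi-likelihood test. Among 13 other transcription regulators of class I genes, 2 were called higher (3.09% of all genes tested) and 0 lower, with a median log2 fold change of 0.06. Those called were Irf9 (0.56, edgeR adjusted p = 0.0217), the DNA-binding subunit of the ISGF3 complex, and Rfxank (0.52, edgeR adjusted p = 0.0388), a subunit of the RFX complex. Irf1, a direct activator of class I genes, had overlapping groups and a log2 fold change of 0.08 (95% interval -0.20 to 0.35). The groups were apart with rAAV8-Hnf1aos1 higher in 3 of the 13 (15.2% of all genes tested), Irf9, Rfxank and Stat2 (0.31, edgeR adjusted p = 0.0927). They were apart with rAAV8-Hnf1aos1 lower in 2 (13.7% of all genes tested). These were the class II transactivator Ciita (-0.61, edgeR adjusted p = 0.0784) and Creb1 (-0.21, adjusted p = 0.220).

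Per gene length, the members spanned a wide range of levels. Mean TPM in rAAV8-Scramble fell in the order B2m (4372), H2-K1 (425), H2-D1 (268), Tapbp (66.5) and Psmb10 (24.8), and these neighbours did not overlap among the mice. Below Psmb10 followed Tap1, Psmb9, Tap2, Nlrc5 and Psmb8 (9.84), where each neighbour overlapped with the next. In rAAV8-Hnf1aos1 the first 4 kept their order, Tap1 had a mean of 43.7 TPM and Psmb10 of 35.6 TPM with overlapping mice, and Nlrc5 had the lowest mean at 16.7 TPM.

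Among the rAAV8-Hnf1aos1 mice, mouse 3 had the lowest level of its group in 10 of 10 members, and mice 1 and 2 each had the highest level in 5. Mouse 3 was also the lowest in 35.9% of all genes tested, in 68.9% of the 505 genes called higher and in 55.0% of the 2487 genes whose groups were apart in that direction, so the order is shared by most genes that were higher and is not particular to the members. The same mouse 3 had the highest Hnf1aos1 of its group, at 433 normalized counts. Among the rAAV8-Scramble mice, mouse 3 likewise had the highest Hnf1aos1, at 620, and it had the highest level in 6 of 10 members. A link between Hnf1aos1 and the members among mice of a group was not tested. The library of rAAV8-Hnf1aos1 mouse 3 had a mean chi-square per gene of 31.7 and 22.4 against mice 1 and 2, which had 14.7 against each other. This measure used raw counts scaled by totals, so that abundant genes weigh most in it. Without the library of rAAV8-Hnf1aos1 mouse 3, 8 members and 1015 of all genes were called higher. Centred on the rAAV8-Scramble mean, the mean profile of the members was -0.02, -0.08 and 0.10 log2 units in the rAAV8-Scramble mice and 0.71, 0.70 and 0.51 in the rAAV8-Hnf1aos1 mice. The 5 other genes with the smallest Euclidean distance to this profile over the 6 libraries were Ctbs (0.101), Sh2d4a (0.142), Pla2g12b (0.163), Trim14 (0.166) and D630045J12Rik (0.171).

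Markers of other cell types were read beside these results. Hepatocyte markers summed to 80057 to 85368 TPM in rAAV8-Scramble and 74673 to 90534 TPM in rAAV8-Hnf1aos1, a sum made up largely of Alb. Of the 7 markers 0 were called higher and 1 lower (3.23% of all genes tested), the tyrosine aminotransferase Tat (log2 fold change -0.72, edgeR adjusted p = 0.00766). Apoa1, of high-density lipoprotein, had 0.41 (edgeR adjusted p = 0.0581) with the groups apart. Of 8 macrophage and Kupffer cell markers, 2 were called higher (3.09% of all genes tested), Adgre1 (log2 fold change 0.42, edgeR adjusted p = 0.0485) and Clec4f (0.44, adjusted p = 0.0327). All 8 lay above 0 with a median of 0.43, and 7 had the groups apart with rAAV8-Hnf1aos1 higher (15.2% of all genes tested). The largest were Marco at 1.41 (edgeR adjusted p = 0.0797) and Cd5l at 0.78 (adjusted p = 0.0586). The summed TPM of the 8 markers was 143 to 177 against 177 to 229. Their part in the result was not tested. Pan-leukocyte markers had 0 of 4 called (6.32% of all genes tested, either way) and summed to 43.4 to 55.3 against 44.1 to 59.2 TPM. T and NK cell markers had 0 of 4 tested genes called (again 6.32%) and summed to 5.19 to 9.81 against 6.77 to 9.69 TPM. B cell markers summed to 3.93 to 4.90 against 3.59 to 4.71 TPM, and dendritic cell markers to 5.11 to 7.35 against 5.69 to 6.12 TPM. Neutrophil markers were under the count filter and summed to 0.624 to 1.24 against 2.75 to 5.80 TPM, with Ly6g at 0 in all 6 libraries, and their part in the result was not tested. Sinusoidal endothelial markers summed to 92.1 to 95.9 against 78.9 to 93.5 TPM and stellate cell markers to 139 to 171 against 110.4 to 149 TPM. In each, 0 of 5 were called (6.32% of all genes tested, either way) and 1 of 5 had the groups apart with rAAV8-Hnf1aos1 lower (13.7% of all genes tested). These were Stab2 (log2 fold change -0.18, edgeR adjusted p = 0.227) and the stellate marker Des (-0.68, adjusted p = 0.0740).

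Psmb9 and Tap1 were called in 6 of 6 fits that left out 1 library, and Psmb8, Psmb10 and Tap2 in 5 of 6, all 3 losing the call without rAAV8-Scramble mouse 3. Without that mouse, 38 of all genes tested were called higher, against 505 with all 6 libraries. The log2 fold changes in that fit were 1.01 for Psmb8, 0.63 for Psmb10 and 0.72 for Tap2. Tapbp and H2-K1 were called in 3 of 6, not without rAAV8-Scramble mouse 1 or 3 or rAAV8-Hnf1aos1 mouse 2. H2-D1 was called in 1 of 6, that without rAAV8-Hnf1aos1 mouse 3, and B2m and Nlrc5 in 0 of 6.

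**Figure D4:**
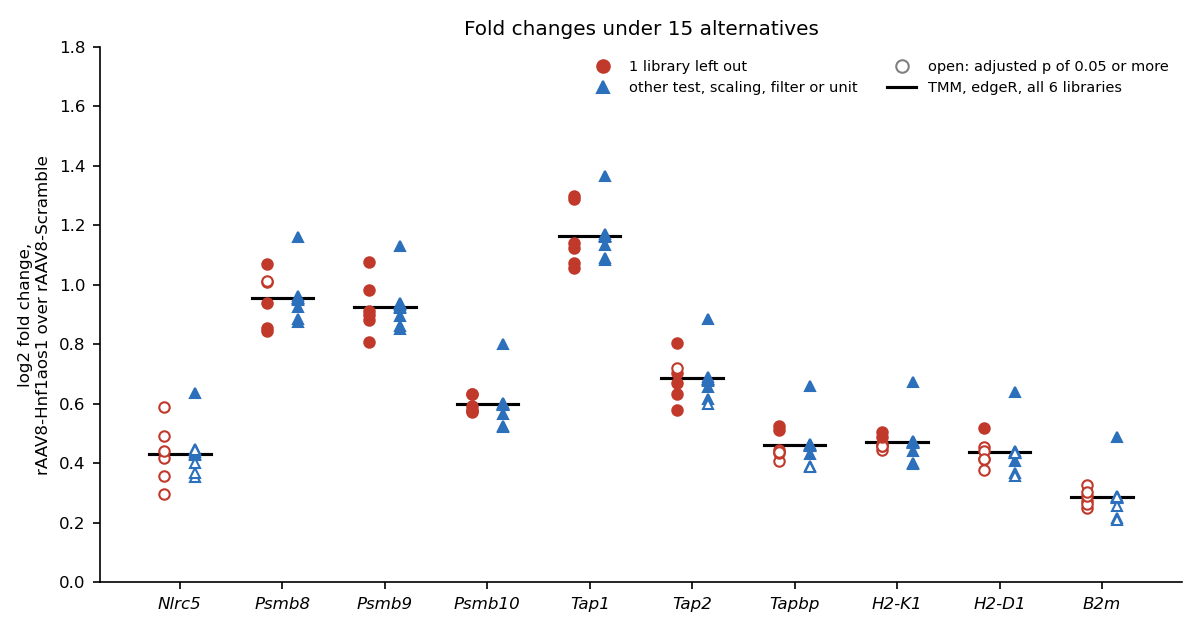
log2 fold change (y axis, rAAV8-Hnf1aos1 over rAAV8-Scramble) of each member with all 6 libraries (black line), with 1 library left out (circles) and under other tests, scalings, filters or units (triangles); open symbols have an adjusted p of 0.05 or more. Every symbol lies above 0, from 0.21 for B2m to 1.37 for Tap1.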

How the data were processed

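RNA-seq of 6 mouse livers was analysed, grouped by the sample labels. The authors aligned reads with STAR, used featureCounts on reads with a unique position in exons, and deposited raw counts, and also deposited TPM values, which used 1 length per gene. The methods name GRCm38 and a poly(A) kit, whereas the labels name GRCm39 and depletion of ribosomal RNA; the strand setting is not given in the sources used here. The authors' normalized counts and their table of log2 fold changes, p-values and adjusted p-values were not used. With 92 ERCC rows removed, counts were tested with edgeR 4.0.16 in R 4.3.3 (TMM, filterByExpr, robust glmQLFit and glmQLFTest, group only) with Benjamini-Hochberg adjustment, and called at 0.05. Normalized counts were scaled by TMM library sizes. The biological coefficient of variation was 13.9%. Ratios used TPM plus 0.1. p-values rest on 3 mice against 3. Coordinates came from GENCODE M21 (GRCm38), promoter windows from RefSeq, whose starts differ from those of GENCODE for some genes. Alternatives were DESeq2 1.42.0, limma 3.58.1 (voom, and log2 TPM), other scalings and filters, a replicate block and each library left out. Figures used matplotlib 3.10.9. The scripts were tested on simulated data. Genes named were the members, Hnf1aos1, genes of the pathway and marker lists, and the 5 genes nearest the members' mean profile; members and lists were chosen with earlier results of these data known. No 2 libraries of a group agreed within sampling noise. A further gene of the regulator list is not reported here.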

Additional observations from a re-analysis of the deposited data

How the results depend on the processing

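No member changed direction under any of the 15 alternatives run. The number of members called higher was 8 with all 6 libraries, 5 with log2 TPM in limma, 9 with DESeq2 and 10 with ERCC library sizes, and 2 to 8 with 1 library left out, the 2 being without rAAV8-Scramble mouse 3; 5 were called without rAAV8-Scramble mouse 1 and 5 without rAAV8-Hnf1aos1 mouse 2. ERCC sizes moved the median over all genes tested to 0.20 (log2), so that they called 3030 genes higher against 505, and 11 of 11 other 20S core subunits. Library totals called 319 higher, and no filter on low counts called 870 higher and 1032 lower against 527. With 1 library left out, 38 to 1015 genes were called higher and 65 to 866 lower; the cause was not tested. Hnf1aos1 passed the threshold with DESeq2 (-0.74), voom (-0.77), no filter (-0.74) and the replicate block (-0.77), and ranged from -1.01 to -0.60 with 1 library left out, called only without rAAV8-Hnf1aos1 mouse 3. With 1 library left out, the log2 ratio differences ranged from 0.46 to 0.82 for Psmb8/Psmb5, 0.83 to 1.16 for Psmb9/Psmb6, 0.30 to 0.47 for Psmb10/Psmb7, 0.38 to 0.58 for Tap1/Tap2, 0.12 to 0.25 for H2-K1/B2m and 0.08 to 0.21 for H2-D1/B2m. Libraries of equal replicate number had correlations of deviations of -0.02, 0.02 and 0.003, and those of unequal number -0.03 to 0.03. With so few mice these values cannot tell whether samples of equal number were paired. The fit with the replicate number as a block called 7 members higher. Psmb8, with 71 to 212 counts per library, is the member whose precision depth limits most.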
